A study of Mus musculus and Homo sapiens with 9 samples.

Results

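Of the 3410 genomic regions listed as peaks of HA-tagged thymine DNA glycosylase (TDG), 405 lay between protein-coding genes. A peak is a stretch where immunoprecipitated DNA piled up above the local background, and its summit is the base with the highest pile-up. A peak was counted here when its summit lay on chromosomes 1 to 19, X or Y, outside every protein-coding gene of the RefSeq annotation of mouse build GRCm38 (mm10), and more than 1 kb from either end of one. Of the 3399 peaks on these chromosomes, 2290 had a summit within 1 kb of a gene end, 704 lay deeper inside a gene body and 405 lay between genes.

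The list came from chromatin immunoprecipitation and sequencing of B16 cells, a mouse melanoma cell line, with an HA knockin at Tdg, after pull-down with an HA antibody. A second library of B16 cells of that genotype, after pull-down with a p53 antibody, gave 126 peaks, 53 of them between protein-coding genes. Each group held 1 library, so no value below has a replicate, and the intervals given cover counting error only. The other 7 samples of the series, among them the input, the IgG control, the HA pull-down from wild-type cells and the p53 pull-down from Trp53 KO cells, were not analysed here, so no peak was set against an untagged or p53-free sample. No treatment is given for either group, and whether the knockin line is 1 clone is not given in the sources used here. A peak list holds no expression values, so the melanoma identity of the cells could not be checked against marker genes.

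TDG cuts out thymine or uracil that sits opposite guanine, and it removes the formylcytosine and carboxylcytosine that TET enzymes make from methylcytosine, which lets repair put back an unmethylated base. Its substrates therefore lie largely at CpG dinucleotides, where cytosine methylation is found in mammals. DNA between protein-coding genes holds enhancers and the promoters of long noncoding RNA (lncRNA) genes, and active CpG-rich promoters are usually kept free of methylation.

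Promoter windows of lncRNA genes carried several of the strongest of these peaks. Their sequences are shown here because the windows differed in CpG number from those without such a peak. Each window runs from 250 bases before to 50 bases after the annotated start (RefSeq, GRCm38.p6), is written 5′ to 3′ on the gene's own strand, and has every CpG in capitals. The first 3 belong to the 15 members with the highest fold enrichment, and Snhg8, a host gene of small nucleolar RNA, belongs to the list of lncRNA genes with described functions.
D130051D11Rik, chr15:85634346-85634645, + strand, 23 CpG: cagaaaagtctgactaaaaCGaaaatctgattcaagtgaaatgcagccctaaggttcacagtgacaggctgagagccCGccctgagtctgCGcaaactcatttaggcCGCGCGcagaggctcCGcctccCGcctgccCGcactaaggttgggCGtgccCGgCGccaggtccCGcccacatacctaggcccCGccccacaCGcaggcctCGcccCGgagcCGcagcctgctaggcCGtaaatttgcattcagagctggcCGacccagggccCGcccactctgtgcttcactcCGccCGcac
Gm11205, chr11:79704320-79704619, + strand, 32 CpG: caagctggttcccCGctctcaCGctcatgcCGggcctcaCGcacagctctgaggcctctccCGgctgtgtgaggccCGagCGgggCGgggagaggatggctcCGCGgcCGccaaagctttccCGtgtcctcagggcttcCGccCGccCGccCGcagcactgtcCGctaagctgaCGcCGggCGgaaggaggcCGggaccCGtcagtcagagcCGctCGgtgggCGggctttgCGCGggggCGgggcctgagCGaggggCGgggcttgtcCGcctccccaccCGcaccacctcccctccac
2810410L24Rik, chr11:120189807-120190106, - strand, 27 CpG: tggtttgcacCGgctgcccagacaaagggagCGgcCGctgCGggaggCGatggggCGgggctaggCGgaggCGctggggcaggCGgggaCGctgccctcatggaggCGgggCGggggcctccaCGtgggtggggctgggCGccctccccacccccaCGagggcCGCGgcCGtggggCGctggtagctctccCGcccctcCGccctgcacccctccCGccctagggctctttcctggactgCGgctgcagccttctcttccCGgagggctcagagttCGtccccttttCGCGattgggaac
Snhg8, chr3:123508287-123508586, - strand, 30 CpG: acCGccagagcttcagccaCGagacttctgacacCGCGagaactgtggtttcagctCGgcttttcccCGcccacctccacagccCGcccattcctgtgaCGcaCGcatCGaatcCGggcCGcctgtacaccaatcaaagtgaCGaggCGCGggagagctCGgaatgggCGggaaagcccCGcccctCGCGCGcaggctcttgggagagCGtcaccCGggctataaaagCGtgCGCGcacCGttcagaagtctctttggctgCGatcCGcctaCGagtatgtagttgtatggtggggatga

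The window of Gm4262, a lncRNA gene next to Litaf, is shown as a contrast. It held 4 CpG, and it was the 1 window under these peaks that contained the cAMP response element TGACGTCA, here in capitals.
Gm4262, chr16:11008648-11008947, + strand: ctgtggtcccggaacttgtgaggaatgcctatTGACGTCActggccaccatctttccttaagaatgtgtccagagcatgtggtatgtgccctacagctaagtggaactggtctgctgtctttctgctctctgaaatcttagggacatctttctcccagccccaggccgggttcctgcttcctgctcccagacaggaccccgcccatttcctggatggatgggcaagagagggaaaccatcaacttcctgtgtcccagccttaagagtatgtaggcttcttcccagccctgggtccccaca

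The TDG summit fell 67 bases inside D130051D11Rik in a 12.2-fold peak. It fell 154 bases before the start of Gm11205 (9.63-fold) and 122 bases before that of 2810410L24Rik (9.37-fold). At Snhg8 it lay 155 bases before the start (4.95-fold), and at Gm4262 it lay 187 bases before it (6.77-fold). The fold enrichment is the value the authors deposited with each peak, the pile-up at the summit over the local background, and it is compared here within the TDG list only.

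Across all lncRNA promoter windows that lie between protein-coding genes, 43 windows of 39 genes were overlapped by a member and 7216 windows of 5928 genes were not. Some genes have several windows, which can overlap each other and lie under the same peak. The windows are then not independent, and the intervals given for them are too narrow. The overlapped windows held a median of 15 CpG (95% interval 11 to 23), against 3 in the windows without a member. These lncRNA windows are called windows without a peak below, although TDG peaks other than members were not checked on them. Their median GC content was 59.0% against 47.0%, and the ratio of observed to expected CpG was 0.649 against 0.208. Protein-coding promoter windows overlapped by any TDG peak held a median of 25 CpG, against 10 in those without one.

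The share of lncRNA windows under a member increased with each step in CpG number. With 0 to 4 CpG it was 0.0842% (4 of 4749 windows), with 5 to 9 it was 0.430% (8 of 1862), with 10 to 14 it was 1.73% (7 of 405), with 15 to 19 it was 5.00% (6 of 120), and with 20 or more it was 14.6% (18 of 123; exact 95% interval 8.91 to 22.1). When the summit itself had to lie in the window, a setting added after seeing the data, the last share was 7.32%. Protein-coding windows showed the same order, from 0.282% in the lowest class to 23.7% in the highest. In each of the 5 classes the coding share was above the upper limit of the lncRNA interval. Coding windows were counted under any TDG peak and lncRNA windows under members alone. Other features that go with CpG number were not tested.

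**Figure D1:**
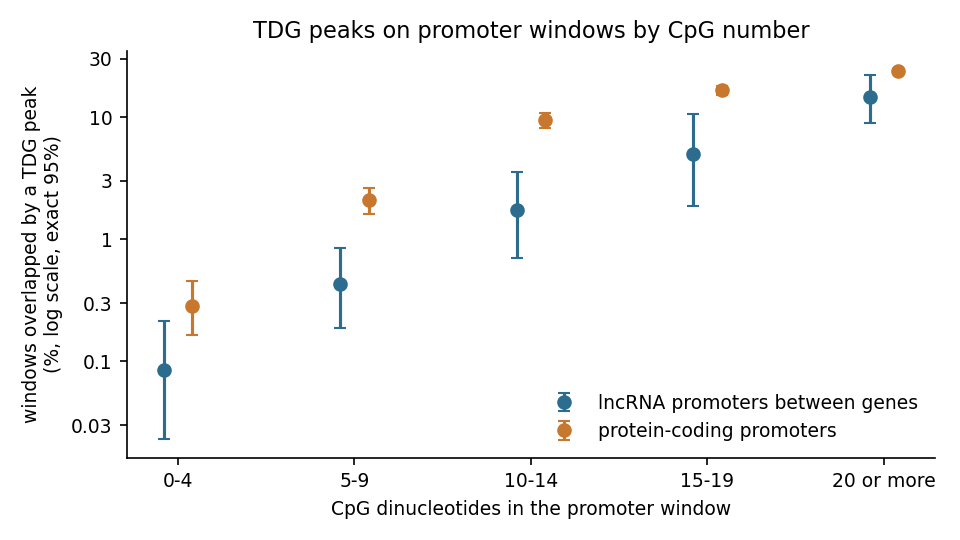
Share of promoter windows overlapped by a TDG peak, on a log scale in percent, by the number of CpG dinucleotides in the 300-base window, with exact 95% intervals as bars. Windows of lncRNA genes between protein-coding genes go from 0.0842% to 14.6% and protein-coding windows from 0.282% to 23.7%.

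Short motifs were counted in the same windows on both strands. None of the letter strings below contains another. The GC box GGGCGG, the site of Sp1-type factors, stood in 53.5% of the 43 overlapped lncRNA windows, in 8.94% of those without a peak and in 35.7% of all 32851 windows of the promoter table. The box CCAAT stood in 41.9%, 37.8% and 37.4% in the same order, and the E-box CACGTG in 9.30%, 5.64% and 7.15%. The AP-1 site TGACTCA was found in 1 of the 43 windows (2.33%) against 6.97% of the windows without a peak and 5.20% of all windows. A p53 half-site, taken by its consensus, stood in 8 of the 43 windows (18.6%, exact 95% interval 8.39 to 33.4), against 10.8% without a peak and 8.36% of all. Several of these 8 are overlapping windows of the same gene, Gm33195, under the same peak, so they are not separate cases. The cAMP response element TGACGTCA stood in 1 of the 43 (2.33%), in 0.790% without a peak and in 1.79% of all. The exact interval of the overlapped windows excluded the share without a peak for the GC box (37.7 to 68.8) and included it for the other 5 motifs. The GC box holds a CpG itself, as do the E-box and the cAMP response element.

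Over whole noncoding genes, 118 of the 405 summits (29.1%, exact 95% interval 24.8 to 33.8) lay inside a noncoding gene. Over all placed TDG peaks the share was 11.1%, with 8.95% at gene ends and 7.81% in gene bodies. Of all bases that lie outside and more than 1 kb from protein-coding genes, called the space between genes below, 12.9% are in a noncoding gene. The p53 peaks between genes gave 18 of 53 (34.0%, interval 21.5 to 48.3), which overlaps the TDG interval. Of the 118 summits, 115 lay in lncRNA genes and 4 in pseudogenes, 10 lay in more than 1 gene, and the genes numbered 120. Of 117 such members that could be placed, 33 (28.2%) also lay within 1 kb of a lncRNA start listed in the promoter table. At the other end, 243 members (60.0%) had no gene of any type within 1 kb.

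Within 1 kb of a lncRNA start listed in the promoter table lay 55 of the 402 members that could be placed this way (13.7%, interval 10.5 to 17.4), against 0.833% of the space between genes. The same share over all placed TDG peaks was 10.4%. These 55 members had a median fold enrichment of 5.99 (95% interval 5.47 to 6.49), and the 347 members farther from a listed start had 5.49 (5.33 to 5.73), so the intervals overlapped. Not every lncRNA gene has a listed start, so some of the 347 may lie near an unlisted one. Members inside a noncoding gene had a median of 5.56 and those outside had 5.70.

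Of 56 lncRNA genes with described functions, 5 (8.93%, exact 95% interval 2.96 to 19.6) held a member or had a start within 1 kb of one, against 1.08% of all 12727 lncRNA genes. Trp53cor1, the p53-induced lincRNA-p21 next to Cdkn1a, held a 6.51-fold peak. Lncpint, another p53-induced transcript, held peaks of 6.42-fold and 3.01-fold, the first of them 1797 bases from a start. Pvt1, the long transcript beside Myc, held a 6.25-fold peak that lay 89001 bases from Myc, its nearest protein-coding gene. Ftx, from the X-inactivation centre, held a 5.47-fold peak, the 1 member on chromosome X, and Snhg8 had a 4.95-fold peak at its start. Pvt1, Lncpint, Ftx and Trp53cor1 span 222230, 124912, 62845 and 21653 bases. A longer gene has more room to hold a summit, and the shares of 8.93% and 1.08% were not matched for gene length. Dancr, a lncRNA known from stem cell differentiation, was singled out after its values were seen and is not in that list. Its member of 5.47-fold had its summit 150 bases before the start, in a window with 18 CpG.

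The 10 noncoding genes with the strongest summits were all lncRNA genes. D130051D11Rik (12.2-fold), Gm10863 (9.37), Crnde (9.11), Gm41011 (9.11), 0610040F04Rik (8.85), Gm41308 (8.59), Gm51955 (8.33), 2310047D07Rik (8.21), E230001N04Rik (8.07) and Gm13791 (7.55) made up that group. Roles of most of them are not known well enough to state. Crnde, named for its expression in colorectal neoplasia, starts beside Irx5, a homeobox gene. The peak's highest point lay 20 bases inside Crnde and 1696 bases from the nearer end of Irx5, whose strand is not in the promoter table.

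No member lay on a microRNA hairpin, but 7 hairpin genes had a member summit within 5 kb. The share over all hairpin genes was not counted, so 7 cannot be called many or few. From these genes 5 mature sequences are shown because they belong to families with known targets or shared seeds. The seed, bases 2 to 8, is in capitals. The let-7 pair shares 1 seed and the miR-29 pair another.
let-7b-5p: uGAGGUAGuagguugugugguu
let-7c-5p: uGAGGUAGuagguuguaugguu
miR-29a-3p: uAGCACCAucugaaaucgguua
miR-29b-3p: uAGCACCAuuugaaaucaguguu
miR-193a-3p: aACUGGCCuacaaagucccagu

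The summit nearest to a hairpin lay 1033 bases from Mir193a, in a 5.73-fold peak. Mir29b-1 and Mir29a, which restrain collagen genes among other targets, lay 1966 and 2312 bases from a 4.80-fold member that was itself 106069 bases from Klf14, its nearest protein-coding gene. Mirlet7c-2 and Mirlet7b, members of the let-7 family that dampens Lin28 and Ras messages, lay 4220 and 4936 bases from a 5.33-fold member. Mir3089 (4037 bases, 4.87-fold) and Mir7052 (4082 bases, 8.33-fold) were the others. A hairpin is not the start of its primary transcript, so these distances say nothing of the microRNA promoters.

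Distances to protein-coding genes ranged from 1022 to 239489 bases. The median distance to the nearest gene end was 14078 bases (95% interval 12392 to 16776), with quartiles of 5205 and 36575. Within 50 kb lay 332 members (82.0%, exact 95% interval 77.9 to 85.6), although 38.0% of the space between genes lies that near. The density fell with distance, from 1.06 members per Mb at 1 to 3 kb (65 members) and 0.631 at 3 to 10 kb (100 members) to 0.421 at 10 to 50 kb (167), 0.181 at 50 to 100 kb (40) and 0.0599 at 100 to 500 kb (33). Beyond 500 kb lies 14.4% of the space, and no member was there, for which the exact Poisson upper limit is 0.0157 per Mb.

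**Figure D2:**
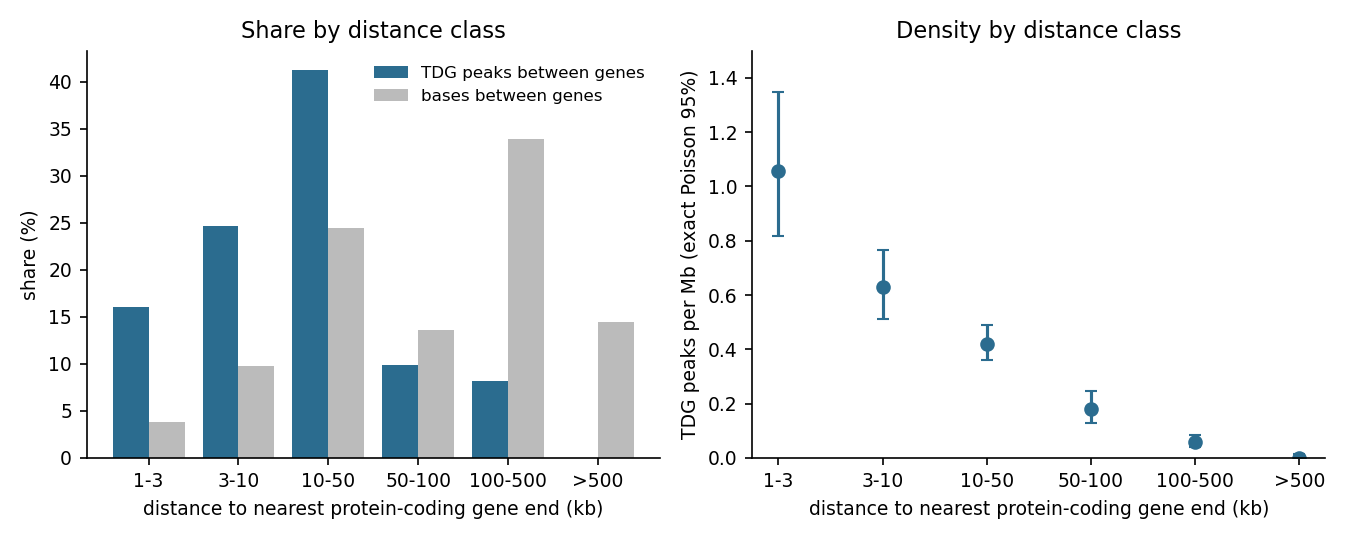
Left, share in percent of the 405 members and of all bases between genes in each class of distance to the nearest protein-coding gene end, and right, members per Mb with exact Poisson 95% intervals. The class of 3 to 10 kb holds 24.7% of the members and 9.77% of the bases, and the class of 100 to 500 kb holds 8.15% and 33.9%.

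Peak strength did not follow the density. The median fold enrichment was 5.47, 5.52, 5.61, 5.73 and 5.25 in the 5 distance classes that held members, from near to far. The strongest of each class were the peaks near Irx5 (9.11, in Crnde), Mier3 (11.4), Slc38a10 (9.37), Wnt7b (12.2, in D130051D11Rik) and Gsdmc (10.3). The farthest member, 239489 bases from Podxl, which encodes the cell-surface sialomucin podocalyxin, had 8.48-fold enrichment. At the 1 kb limit, the peaks just outside lay at Acvrl1 (979 bases, 5.73-fold), Slc11a1 (993, 5.73) and Pde9a (998, 5.80). The members just inside lay at Fxyd3 (1022, 4.95), Hes1 (1052, 3.44) and Mef2d (1057, 4.95).

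A gene's start and its far end were about equally often the nearest end. Among the 307 members whose nearest gene has a strand in the promoter table, the start was nearer for 162 (52.8%, exact 95% interval 47.0 to 58.5). By distance class the start was nearer for 33 of 48 at 1 to 3 kb (68.8%, interval 53.7 to 81.3), 41 of 84 at 3 to 10 kb, 63 of 129 at 10 to 50 kb, 12 of 29 at 50 to 100 kb and 13 of 17 at 100 to 500 kb (76.5%, interval 50.1 to 93.2).

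All 405 members together had a median fold enrichment of 5.57 (95% interval 5.47 to 5.73; quartiles 4.82 and 6.51; range 1.63 to 12.2). Peaks in gene bodies had 5.47 and peaks at gene ends had 5.99, with an interval of 5.79 to 5.99 that lay above that of the members. The median width was 398 bases, against 404 in bodies and 433 at ends. The authors' median −log10 q was 7.54 for the members, 7.87 in bodies and 8.65 at ends. The pile-up at the summit, recovered from the deposited values, had a median of 23 reads for the members (range 16 to 556), so a typical peak rests on few reads.

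**Figure D3:**
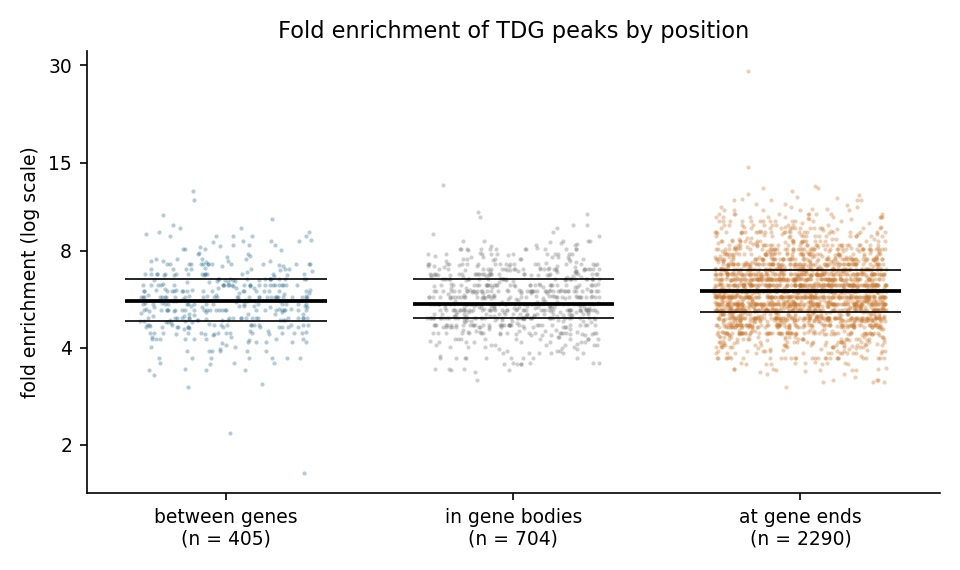
Fold enrichment of each TDG peak as the authors deposited it, on a log scale, for the 405 peaks between genes, 704 in gene bodies and 2290 at gene ends, with thick lines at the medians and thin lines at the quartiles. The medians are 5.57, 5.47 and 5.99, and 2 members with folds of 2.17 and 1.63 lie below all others.

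The 15 strongest members were led by the peak in D130051D11Rik near Wnt7b, a Wnt ligand gene, at 12.2-fold. The next were near Mier3 (11.4), Gsdmc (10.3), Trappc9 (10.0), Rab11fip4 (9.63, at the start of Gm11205), Pick1 (9.37, in Gm10863) and Slc38a10 (9.37, at the start of 2810410L24Rik). Tmem161b (9.11, in Gm41011), Irx5 (9.11, in Crnde) and Cd9 (9.03), a tetraspanin gene, followed. The last 5 shared a fold of 8.85, and among them were the peaks near Bhlhe40, a clock-related repressor gene (in 0610040F04Rik), Lmntd1, Midn and Socs3, which encodes a cytokine signalling inhibitor. Of these 15, 8 lay in a noncoding gene or within 1 kb of a listed lncRNA start, and 11 lay on chromosomes 6, 11, 12 or 15.

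Members were unevenly spread over the chromosomes. Chromosomes 6, 15, 11 and 12 held 74, 50, 50 and 41 members, together 215 of 405 (53.1%, exact 95% interval 48.1 to 58.0), on 17.8% of the space between genes. Of all other placed TDG peaks, 37.4% (interval 35.7 to 39.2) were on these 4 chromosomes, so the rest of the list leaned the same way to a lesser degree. Density reached 0.864 per Mb on chromosome 6, 0.800 on 15 and 0.789 on 11, and was 0.531 on both 12 and 17. Chromosomes 14, X and Y held 1 member each, but they held only 21, 2 and 1 TDG peaks of any kind. As a share of a chromosome's own TDG peaks, members made up 19.5% on chromosome 15, 18.6% on 12, 17.1% on 6 and 11.8% on 11 (50 of 425), against 11.9% over the whole placed list and 4.62% on chromosome 7. Chromosome 11 was thus near the overall share, and its member count went with a high count of TDG peaks of every kind. These 4 chromosomes were chosen for their counts, so the comparison is a description.

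**Figure D4:**
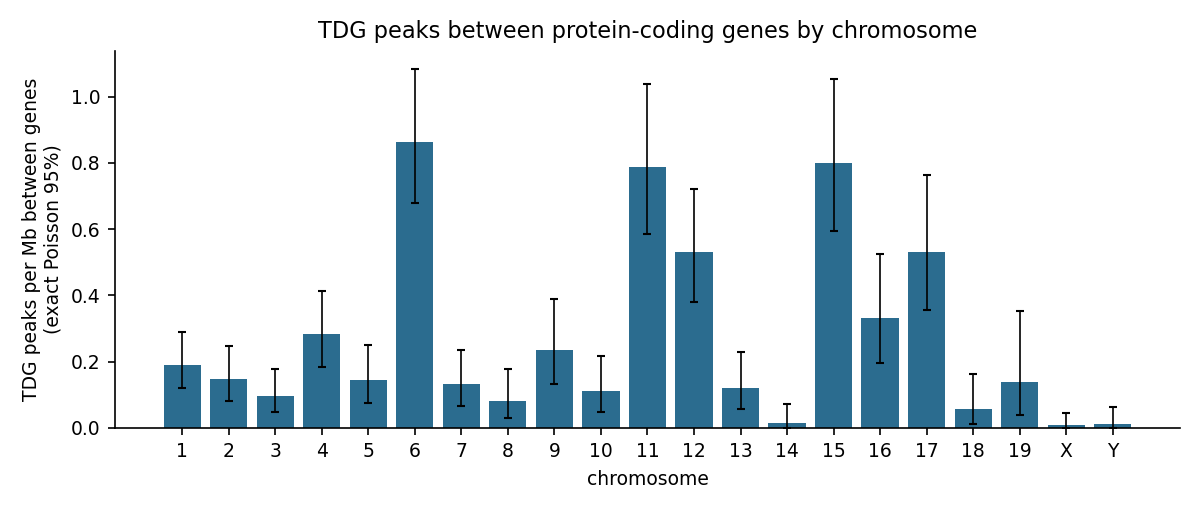
Members per Mb of space between protein-coding genes on each chromosome, with exact Poisson 95% intervals. Chromosomes 6, 15 and 11 stand at 0.864, 0.800 and 0.789, and chromosome 14 at 0.0132.

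Another TDG summit lay within 10 kb of 109 members (26.9%, exact 95% interval 22.7 to 31.5), against 16.2% over all placed TDG peaks. Of the gene-body peaks 169 of 704 had one (exact 95% interval 20.9 to 27.3%), which overlaps the interval of the members, and of the gene-end peaks 11.9% had one. For 66 members (16.3%) that neighbour was another member, and for 44 (10.9%) it was a gene-end peak, though some had both. Of the space between genes, 0.833% lies within 10 kb of a gene-end peak and 3.99% within 50 kb, where 146 members (36.0%) were found. These shares are not independent of the distances to genes given above. The median distance from a member to the nearest gene-end peak was 100505 bases.

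Linked at 10 kb, the members fell into 339 single peaks, 27 pairs and 4 groups of 3. The first of these groups, on chromosome 15 between Wnt7b and Ppara, the gene of a fatty-acid-sensing nuclear receptor, had folds of 4.45, 6.25 and 6.02. At Litaf on chromosome 16 the folds were 6.77, 7.29 and 5.47, with the first summit just before and the second inside Gm4262, the gene whose window is printed above. Beside Cdkn1a, which encodes the cell-cycle inhibitor p21, they were 6.51, 4.95 and 6.25 over 3031 bases. Between Tubb3, a tubulin gene, and Def8 on chromosome 8 they were 4.12, 4.89 and 7.54. No other TDG peak lay inside any of the 4.

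Linked at 50 kb, 2 larger groups appeared on chromosome 15. The stretch between Wnt7b and Ppara held 8 members over 102241 bases, with folds of 6.49, 4.45, 12.2, 7.29, 4.45, 6.25, 6.02 and 5.33 in order of position. The highest of them is the D130051D11Rik promoter peak, and the last is the one near the let-7 hairpins. The stretch between Sox10 and Pick1 held 5 members over 45988 bases, all inside the lncRNA gene Gm10863, with folds of 5.21, 4.18, 4.70, 5.21 and 9.37. Sox10, a master regulator of melanocytes, was the nearest gene to 3 of these, at 2527, 11788 and 28531 bases. Groups of 4 lay between Tex44 and Ptma on chromosome 1 and between Tmem179 and Inf2 on chromosome 12.

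**Figure D5:**
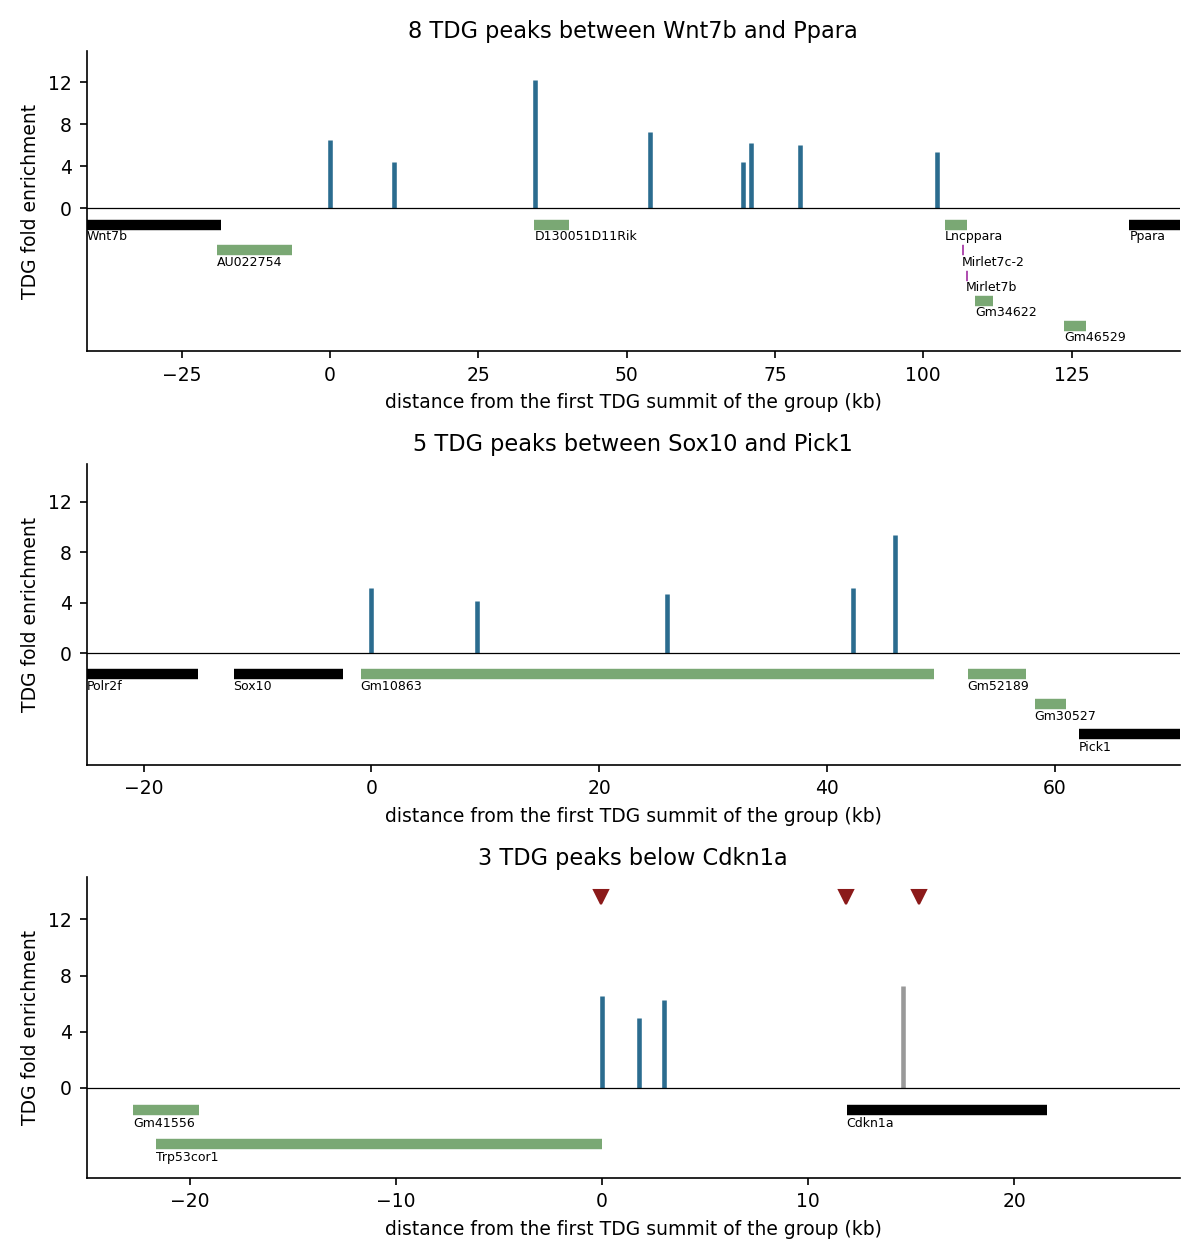
Fold enrichment of TDG peaks at 3 loci against the distance in kb from the first summit of the group, with members in blue and another TDG peak in grey, p53 summits as red triangles, protein-coding genes in black, lncRNA genes in green and microRNA hairpins in purple, drawn wider than to scale. The 8 members between Wnt7b and Ppara reach 12.2, the 5 between Sox10 and Pick1 reach 9.37, and the first of the 3 beside Cdkn1a, at 6.51, sits under a p53 summit.

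The members had 341 distinct nearest protein-coding genes, which are 1.56% of the 21887 in the annotation. Of these, 51 were nearest to more than 1 member and 11 to at least 3: Wnt7b and Ppara had 4 each, and Gsdmc, Tmem179, Litaf, Cdkn1a, Mkln1, Tpra1, Klrb1c, Bahcc1 and Sox10 had 3 each. A TDG peak within 1 kb of an end was present at 102 of the 341 nearest genes (29.9%, exact 95% interval 25.1 to 35.1). Over all protein-coding genes that share was 12.3%, and at the chromosome mix of the nearest genes it was 17.8%. A nearest gene is a matter of position and need not be the gene a site acts on.

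Genes that answer growth factor, stress and other signals, some of them within minutes, had the highest share among the gene lists examined. Of 50 immediate early and signal-responsive genes, 14 (28.0%, exact 95% interval 16.2 to 42.5) were nearest to a member, against 1.56% of all protein-coding genes. Their 16 members gave 1.83 per Mb of the space nearest to these genes (exact 95% interval 1.04 to 2.97), against 0.344 at the chromosome mix of the list and 0.247 at its mix of chromosome and distance. By fold the first were at Ier3, an early-response survival gene (7.29), Klf10, a TGF-beta-induced zinc-finger gene (6.77), Nr4a1, an orphan nuclear receptor gene (6.46), Id2, an inhibitor of basic helix-loop-helix factors (6.25), and Myc (6.25, in Pvt1). Klf10 and Fos had 2 members each, of 6.77-fold and 5.73-fold at Klf10 and of 5.21-fold and 5.11-fold at Fos. The other genes, Cebpb, Dusp6, Sik1, Jun, Klf4, Nr4a3, Irf1 and Hes1, had folds from 3.44 to 5.73. Their distances were wide: the member at Hes1 lay 1052 bases away and that at Klf4 lay 118823 bases away.

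The other lists gave fewer. Of 26 melanocyte lineage and pigment genes, 2 were nearest to a member, Sox10 with 3 and Mitf, the melanocyte master transcription factor gene, with 1 of 5.09-fold at 25579 bases. Of 42 p53 target genes, 2 were, Cdkn1a with 3 members and Sesn2, a stress-induced gene, with 1 of 6.51-fold at 5205 bases. Of 86 developmental transcription factor genes, 4 were, among them Irx5 (9.11), Tbx2 (6.49) and Hoxa9 (5.66). Densities per Mb of nearest space were 0.813 (0.221 to 2.08) for the melanocyte list and 1.17 (0.318 to 2.98) for the p53 targets, against 0.318 and 0.271 at their chromosome mixes. For the developmental list the density was 0.230 (0.0626 to 0.588) against 0.266. At the mix of chromosome and distance the 3 reference densities were 0.234, 0.257 and 0.189, the last of them below the density of the developmental list. The reference densities of the melanocyte and developmental lists lay inside the intervals of these lists. Those of the p53 targets lay below its interval, but 3 of the 4 members there are neighbours beside Cdkn1a within 3031 bases. The Poisson interval counts these as separate events and is then too narrow, so no excess is read from it.

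Overlap with p53 was rare. A p53 peak shared at least 1 base with 5 of the 405 members (1.23%, exact 95% interval 0.402 to 2.86), against 0.324% of all placed TDG peaks and 6 of the 2994 others (0.200%, interval 0.0736 to 0.436). From the side of p53, 5 of its 53 peaks between genes (9.43%, interval 3.13 to 20.7) overlapped a member. The share of all p53 peaks that overlap a TDG peak was not counted, so 9.43% cannot be called high or low. Within 10 kb of a p53 peak lay 8 members (1.98%, interval 0.857 to 3.85), against 0.735% of the other TDG peaks (0.461 to 1.11), and these intervals overlapped. Gene-body peaks alone gave 8 of 704 (1.14%, interval 0.492 to 2.23). Among the 8 members were neighbours beside Cdkn1a and near Bahcc1, which are not independent.

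Of these 5 shared sites, 2 lay in regions of high background. The member near Ly6c2, at chr15:75086668-75086930, had a 2.17-fold enrichment over a recovered local background of 236 reads, and the p53 peak there stood 2.72-fold over 182 reads. The member at chr17:39843176-39846770 was 3595 bases wide and had 1.63-fold enrichment over 205 reads, with p53 at 2.46-fold over 150. Its nearest protein-coding gene, Esp38, was 107096 bases away, and an end of the noncoding gene Rn18s-rs5 lay 2930 bases from its summit. Other p53 peaks between genes lay 218, 710 and 1444 bases from this member. The genome-wide background was 2.558 reads, 201 members stood within 0.002 reads of it, and the upper quartile over all members was 3.13. The member near Szrd1, with 10 reads and 3.28-fold, was the third with a background of at least 10 reads and met no p53 peak. Without such regions the overlap was 3 of 402 members (0.746%, interval 0.154 to 2.17) and 4 of 2991 others (0.134%, interval 0.0364 to 0.342), and these intervals overlapped.

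At the other 3 sites the recovered background was below 10 reads in both lists. Beside Cdkn1a the member at chr17:29078956-29079224 lay at one edge of Trp53cor1, with its summit 14 bases inside, 6.51-fold, and the p53 summit was 63 bases away with 26.2-fold enrichment in its own list. Near Bahcc1 the member at chr11:120230101-120230478, in the lncRNA gene 2900052L18Rik, had 4.95-fold and shared 121 bases with a 41.7-fold p53 peak whose summit was 379 bases away. Near Sfi1 the member at chr11:3123736-3124196 had 4.94-fold over 5 reads, a background above the upper quartile of 3.13 over all members. It shared 266 bases with a 33.8-fold p53 peak, and its summit lay 98 bases from the noncoding gene Pisd-ps1. The summits at Cdkn1a were thus the closest of these 3 pairs, and both neighbours of that member, at 4.95-fold and 6.25-fold, lay 1837 and 3094 bases from the same p53 summit.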

How the data were processed

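Peak lists of 2 samples were analysed, from 1 HA library and 1 p53 library of B16 cells with an HA knockin of Tdg, fixed per the labels' protocols in 1% formaldehyde (10 min). Per the submitters' processing notes, the build was mm10 and the tools included MACS2, Bowtie2, Trim Galore, Picard, ChIPseeker and deepTools. Not given in the sources used here were their versions and roles, library totals, the control and the calling threshold. The authors deposited narrowPeak lists with, for each peak, positions in bases, a whole-number score, a fold enrichment (a ratio with a pseudocount of 1 added to both sides), and −log10 p and −log10 q values. The pile-up at each summit and its local background were recovered by solving the MACS2 formulas for fold and p together. Neither was divided by a library total here. The summit pile-up of TDG peaks was then divided by a fitted scale of 0.924, which gave nearly whole reads. The background was not divided by that scale, so the printed reads and background do not give back the fold directly.

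Genes, promoter windows and microRNAs came from RefSeq tables of GRCm38.p6. The tables give a strand for 17492 of 21887 protein-coding and 9533 of 12727 lncRNA genes; no genome sequence was used, so sequence under peaks was read only in promoter windows. Promoter windows of 1 chromosome are not analysed here. The space between genes runs from the first to the last protein-coding gene of each chromosome, and assembly gaps were not removed. Densities at a mix of chromosome or distance weight the density over all protein-coding genes by the list's own share of the space.

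With 1 library per group there was no test: shares have exact binomial (Clopper-Pearson) 95% intervals, densities exact Poisson intervals and medians order-statistic intervals. They cover counting error only, and neighbouring peaks are not independent. The members, gene lists and tests were chosen with earlier results of these data known. Named were the 15 members with the highest fold, the highest of each distance class and the farthest, 3 peaks on each side of the 1 kb limit, members overlapping p53, the 10 noncoding genes with the strongest summits, groups of 3 or more linked at 10 kb, members within 5 kb of microRNAs, those with a background of at least 10 reads, and up to 5 per gene list by fold; other names were chosen after their values were seen, and 2 that the rule gives are not reported here. Analyses used Python 3.11.15 with numpy 2.4.6, pandas 2.3.3 and scipy 1.17.1, and the assignment of classes and the recovery of backgrounds were tested on simulated data.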

Additional observations from a re-analysis of the deposited data

How the results depend on the processing

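No paired analysis was possible because each group held 1 library and no test was run. Of 43 values recomputed under other settings, 25 stayed within the range set for the main value and 18 moved. With a limit of 10 kb, 240 members were left, with genes of every type kept 1 kb away 243, and at or above the list's median fold 172. The share in a noncoding gene was 40.0% when one within 1 kb counted. The median distance was 18274 bases with a limit of 3 kb. The share with a TDG neighbour was 22.1% with a limit of 3 kb and also with a −log10 q of at least 5, and 15.7% at or above the median fold. It was 2.47% for neighbours within 1 kb, 53.8% within 50 kb and 16.3% for other members alone. The overlap with p53 was 1 member at or above the median fold, 3 without backgrounds of at least 10 reads, 2 with summits within 200 bases, and 8 with intervals within 10 kb. The median fold was 5.79 with a −log10 q of at least 5 and 6.72 at or above the list's median, the latter by construction. The share of lncRNA windows with at least 20 CpG under a member was 7.32% when the summit had to lie inside the window. It was 10.3% without chromosomes 6, 11, 12 and 15. These 2 settings, and those for chromosomes and immediate early genes (12 members with a −log10 q of at least 5, 13 with a limit of 3 kb), were chosen after seeing the data. Apart from these constructions, the cause of a move was not tested. Typical summits rested on 23 reads, and how many weaker sites the list leaves out was not tested.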
